A study of Homo sapiens with 21 samples.

Results

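The comparison described here set 3 K562 libraries overexpressing 34kn against 3 libraries of its control, 6 of the 21 libraries of the series, chosen by their labels. K562 is an established human erythroleukaemia cell line, kept by the labels' protocols in RPMI 1640 medium with 10% fetal bovine serum. The labels' design text places an enhancer 34 kb upstream of MYB that is transcribed into a pair of enhancer RNAs, and 34kn is 1 of them. The stated question was whether each enhancer RNA alters exon usage. The control is labelled only as the 34kn control, and the labels give no vector, dose, time after transfer or clone. The other enhancer RNA, 34kp, has its own 3 controls and 3 overexpression libraries, which are used below only where the 34kn effect is set against it. The level of the enhancer RNA itself was not analysed here, so the overexpression could not be checked in these libraries. The labels do not say whether the replicates are separate cultures, and the spread behind each p-value may be technical.

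MYB encodes a transcription factor that keeps blood progenitors dividing and that falls in level as red cells mature. Enhancers are stretches of DNA that raise transcription of a distant gene, and active enhancers are often themselves transcribed into short-lived enhancer RNAs. A gene with more than 1 promoter can make transcripts that differ in their first exons. Reads over the exons at a gene's start, compared with reads over the rest of the gene, can therefore differ with the start used. They do not measure it directly, and which start was used was not tested here.

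Counts per exon bin (a stretch of exon that is not divided further by any annotated transcript) summed to between 36563252 and 40040021 per library. The cells carried the markers of their line. The joined entry that holds the fetal globin genes HBG1 and HBG2 stood at 8905 to 10583 CPM (counts scaled to library size) over the 6 libraries, and GATA1, the main erythroid transcription factor, at 147 to 207 CPM. A list of 16 granulocytic and monocytic markers summed to 22.8 to 25.5 CPM in the controls and 24.0 to 27.7 CPM with 34kn, with 14 of its members under 1 CPM. The defining neutrophil and monocyte genes ELANE, CTSG, S100A8 and S100A9 were at 0 in all 6 libraries, and CD33 and LYZ stood at 10.4 to 13.25 CPM and 11.1 to 13.1 CPM. A list of 10 lymphocyte markers summed to 8.47 to 10.1 CPM in the controls and 7.68 to 8.71 CPM with 34kn. A list of 10 epithelial and kidney markers summed to 1124 to 1275 CPM and 1071 to 1125 CPM, with 5 of its members under 1 CPM. Reads set aside as of low alignment quality were 8.94 to 10.5% in the controls and 7.62 to 9.45% with 34kn. Control 1 stood apart from the other libraries. On the first principal component of gene levels, with 35.3% of the variance, it lay at -42.3, against 3.802 and -12.7 for controls 2 and 3 and 12.2 to 21.7 for the overexpression libraries.

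Most bins with lower usage lay towards the 5' ends of genes, so start regions of 4 genes are shown. They are those of MYB and of PARP1, DIAPH1 and LYL1, whose first tested bins differed. The first tested bins of PARP1 and DIAPH1 are numbers 6 and 3 from the 5' end. Like MYB's bins they have no coordinates, so whether they lie in these windows is not known. The lower bin of LYL1 shares 59 bases with its window, but its p is not among the smallest (edgeR adjusted p = 0.02126). Each sequence runs from 250 bases before the start of transcription to 50 bases after it, from RefSeq on GRCh38.p14, with CG dinucleotides in capitals because GC content moved with the results.
PARP1 promoter (chr1:226408044-226408343, minus strand): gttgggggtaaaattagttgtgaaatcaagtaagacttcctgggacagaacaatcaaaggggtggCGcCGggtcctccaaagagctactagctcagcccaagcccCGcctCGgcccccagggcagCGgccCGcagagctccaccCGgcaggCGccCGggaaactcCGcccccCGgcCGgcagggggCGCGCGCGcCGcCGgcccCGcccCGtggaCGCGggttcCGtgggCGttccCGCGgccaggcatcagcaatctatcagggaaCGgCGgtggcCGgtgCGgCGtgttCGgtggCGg
DIAPH1 promoter (chr5:141618951-141619250, minus strand): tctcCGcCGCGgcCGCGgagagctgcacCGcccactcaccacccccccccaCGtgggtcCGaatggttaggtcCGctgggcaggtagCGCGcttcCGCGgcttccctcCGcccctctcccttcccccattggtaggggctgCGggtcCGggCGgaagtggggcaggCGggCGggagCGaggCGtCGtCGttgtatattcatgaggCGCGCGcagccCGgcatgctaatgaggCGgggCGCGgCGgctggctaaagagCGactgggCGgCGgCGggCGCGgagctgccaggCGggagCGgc
LYL1 promoter (chr19:13102809-13103108, minus strand): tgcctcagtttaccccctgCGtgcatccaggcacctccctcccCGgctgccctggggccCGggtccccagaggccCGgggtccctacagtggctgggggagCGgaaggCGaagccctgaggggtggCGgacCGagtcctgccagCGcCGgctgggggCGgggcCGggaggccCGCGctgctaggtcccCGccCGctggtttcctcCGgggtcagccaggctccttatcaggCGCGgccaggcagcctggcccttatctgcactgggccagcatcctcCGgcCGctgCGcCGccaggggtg
MYB promoter (chr6:135181058-135181357, plus strand): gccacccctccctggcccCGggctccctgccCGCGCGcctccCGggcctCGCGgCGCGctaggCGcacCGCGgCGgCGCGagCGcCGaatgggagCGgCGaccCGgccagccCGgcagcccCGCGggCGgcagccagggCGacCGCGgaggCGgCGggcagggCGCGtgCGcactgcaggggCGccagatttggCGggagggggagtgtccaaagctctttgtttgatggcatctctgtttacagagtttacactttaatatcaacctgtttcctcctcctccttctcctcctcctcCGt

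These windows hold 33, 39, 23 and 35 CG dinucleotides, and 17.2%, 8.71%, 35.8% and 14.1% of all promoter windows of the same length hold as many or more. The window of LDB1, another gene with a lower first bin, is not shown. It lies at chr10:102114953-102115252 and shares 0 bases with that bin, which lies at 102120449-102120453. This window, at another place than the bin, holds 13 CG dinucleotides, and 51.7% of windows hold as many or more. The promoters of genes tested for usage held a median of 26 and those of genes whose first tested bin was called lower a median of 29, against 14 over all promoters, with a median GC content of 65%, 67% and 58.7%. The motif searched was CG, which reads the same on both strands, and 96.0% of all 300-base promoter windows hold it at least once. GC content was 70% for the PARP1 window, 73.7% for DIAPH1, 74.7% for LYL1 and 71% for MYB.

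Exon usage differed at many bins, nearly always in 1 direction. Of 216197 bins tested, 1718 (0.795%) had a usage that differed between 34kn overexpression and control at an adjusted p below 0.05 in edgeR's exon usage test. Of these, 1670 were lower with 34kn overexpression and 48 were higher (0.772% and 0.0222% of the bins tested). By gene, 827 of 11407 (7.25%) were called by Simes' method. A usage value is the log2 change of a bin relative to the change of its whole gene, and the lower bins had a median of -0.74, with a lowest value of -2.87. The higher bins had a median of 0.49.

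The lower bins were concentrated at the 5' ends of genes. Among genes with at least 5 tested bins and a known strand, 62.6% of the lower bins lay in the first 10% of the gene's tested bins, where 12.1% of all tested bins lie, and 0.705% were the last tested bin, against 4.75% of all. The first tested bin was called lower in 328 of the 656 called genes that could be ordered in this way. The higher bins did not share this position, with 1 of 28 in the first 10%. Position was no input to the test that called the bins, but it went with differences between whole libraries. First tested bins held 2.49%, 1.75% and 1.92% of counts in controls 1 to 3, and 1.61%, 1.60% and 1.65% with 34kn. The concentration is therefore no independent support for the calls.

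**Figure D1:**
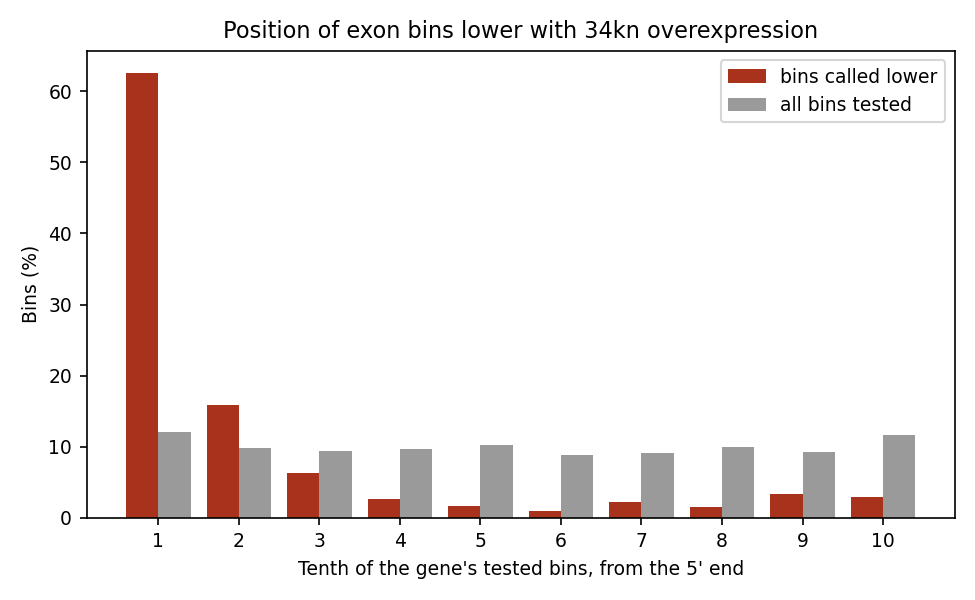
Bars give the percentage of exon bins in each successive 10% of their gene's tested bins, counted from the 5' end, for bins called lower with 34kn overexpression and for all bins tested. The first 10% holds 62.6% of the lower bins and 12.1% of all bins.

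The bins with the smallest p came from genes of several functions. AGAP3, a GTPase-activating protein, had its bin 4 at 3.83, 0.860 and 1.04 CPM in controls 1 to 3 and at 0.166, 0.153 and 0.127 CPM in the overexpression libraries. All 3 overexpression libraries were below all controls, and the usage value was -2.36 (edgeR adjusted p = 4.634e-14). ATP2A2 encodes the calcium pump of the endoplasmic reticulum. Its bin 3 stood at 4.71, 0.430 and 1.37 CPM in the controls and at 0.0552, 0.0256 and 0.305 CPM with 34kn, a usage value of -2.87 (edgeR adjusted p = 2.255e-13, and 0.5323 in the DEXSeq-type model described below). Control 1 was the highest library and the groups did not overlap.

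ETF1, the factor that ends translation at stop codons, had its bin 26 at 7.03, 1.59 and 2.98 CPM in the controls and at 0.690, 0.792 and 0.840 CPM with 34kn, a usage value of -1.71. Its partner in termination, GSPT1, had a usage value of -1.28 at bin 31 (16:11915879-11915920 on GRCh38, 42 bases, 71.4% GC), where controls stood at 8.46, 1.59 and 3.85 CPM and 34kn libraries at 1.55, 1.30 and 1.40 CPM. For both genes this was the first tested bin, and control 1 was above every other library.

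PARP1, a DNA damage sensor that builds poly(ADP-ribose) chains, had its bin 68 at 11.1, 2.07 and 5.30 CPM in the controls and at 1.35, 1.64 and 1.91 CPM with 34kn, a usage value of -1.31. This was the first tested bin of PARP1, a gene on the minus strand. DIAPH1, a formin that nucleates actin filaments, had its first tested bin, 61, at 9.44, 2.43 and 5.38 CPM in the controls and at 2.703, 2.10 and 1.81 CPM with 34kn. The groups overlapped for DIAPH1, with control 2 below overexpression 1, and the usage value was -1.05.

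TRIM28, a corepressor that recruits histone methylation to silenced DNA, was lower at bin 5 (19:58544562-58544937, 376 bases, 82.7% GC), at 25.0, 5.97 and 9.75 CPM in the controls against 4.33, 3.53 and 4.45 CPM. EIF2AK1, the haem-regulated kinase of eIF2, PAIP1, a translation regulator bound to poly(A)-binding protein, and CCNY, a cyclin, were also among the genes with the smallest p. Their usage values ran from -1.29 for CCNY to -1.11 for PAIP1. In 8 of these 10 genes the bin was the first one tested, in 9 the groups did not overlap, and in all 10 control 1 was the highest of the 6 libraries. Over all bins tested, 10.5% had every overexpression library below every control. The 10 genes were chosen by small p, so the lack of overlap is no independent support. Without control 1, 9 of the 10 were called, and EIF2AK1 was not (edgeR adjusted p = 0.07458). The DEXSeq-type model called 2 of the 10, AGAP3 and CCNY.

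**Figure D2:**
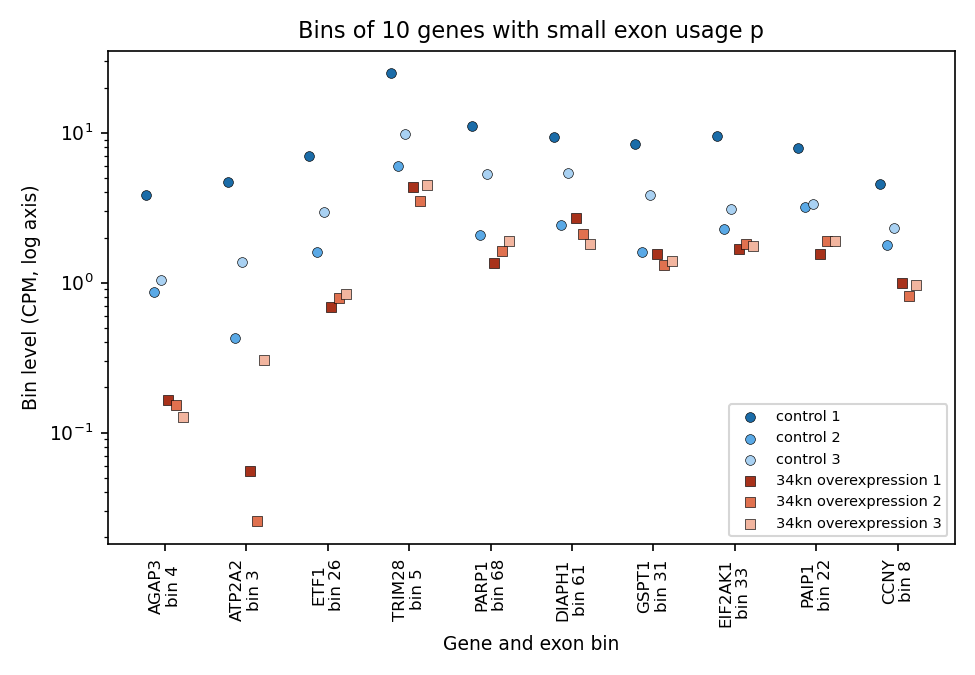
Points give the level (CPM, log axis) of the exon bin with the smallest p in each of 10 genes with small exon usage p, in the 3 control and the 3 34kn overexpression libraries. Control 1 is the highest library for all 10 bins, and the groups do not overlap for 9.

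Control 1 was the highest library at most of the lower bins. Over the 1670 lower bins the median level was 5.02, 2.21 and 3.03 CPM in controls 1 to 3 and 1.60, 1.56 and 1.76 CPM with 34kn, and control 1 was above the other 5 in 96.7% of them. The 1670 bins were chosen on these libraries, so their direction with a library left out is no independent support. Without control 1 their median usage became -0.47, and 351 bins in 177 genes were called in all, 264 of them among the 1670. Without control 2, 8394 bins in 2645 genes were called, and without control 3, 1127. Leaving out overexpression 1, 2 or 3 left 360, 255 and 715 bins. A DEXSeq-type model, which estimates each bin's own spread, called 23 bins (0.0106%) in 12 genes, 19 of them among the lower bins. The edgeR test pools the spread over a gene's bins, so that a bin whose replicates vary more than the rest of its gene has too small a p.

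GC content moved with the lower bins. Only 541 of the 1670 lower bins and 73427 of the 216197 tested bins could be placed on GENCODE 29, and the others have no GC value. Among placed bins the median GC content was 70.5% in the lower bins and 50% in all tested. Of the placed lower bins, 51.8% had at least 70% GC, against 8.83% of all placed bins. Position and GC content each went with lower usage. Among bins of 40 to 50% GC, first tested bins had a median usage of -0.08 and other bins 0.01. Among bins of at least 70% GC these medians were -0.34 and -0.14. Bins of at least 70% GC held 8.72%, 6.71% and 7.04% of the counts of placed bins in controls 1 to 3, and 5.98%, 6.06% and 6.11% with 34kn, so the groups did not overlap. With a GC trend taken off each library, an alternative chosen after seeing the data, 1983 bins in 767 genes were called among placed bins, against 518 in 301 genes without that step. The part of GC content and of control 1 in the result was not tested further.

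None of the same bins was called with 34kp. Over the 1670 bins the median usage value with 34kp was 0.13, and 19 of 220442 bins (0.00862%) were called in that comparison as a whole. The difference between the effects, tested over 12 libraries, was called for 730 of 235683 bins (0.31%). That count fell to 140 in a fit with the replicate number as a block, to 65 without 34kn control 1 and to 74 without 34kp overexpression 1, and it rose to 2873 without 34kp overexpression 3.

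Proteins that act on RNA were among the genes called. Of 52 splicing factors tested for usage, 13 were called (25%), with 47 lower and 3 higher bins, against 7.25% of all genes. The share was not particular to them. Over the gene lists it ran from 0%, as in reported MYB target genes, to 30% in STAT5 and cytokine signalling genes. NRF2 oxidative stress genes had 25% and DNA replication genes 24.2%. HNRNPM bin 9 had a usage value of -0.81, QKI bin 3 -0.72, HNRNPU bin 88 -0.61 and HNRNPA2B1 bin 45 -0.83. Without control 1 HNRNPM was not called (edgeR adjusted p = 0.3281) and the other 3 were. The DEXSeq-type model called none of these bins, with adjusted p-values of 0.7585 for HNRNPM, 0.4269 for QKI, 0.5529 for HNRNPU and 0.372 for HNRNPA2B1. HNRNPA2B1, which binds RNA in the nucleus, stood at that bin at 47.2, 14.6 and 28.4 CPM in the controls and at 10.8, 9.87 and 13.7 CPM with 34kn, without overlap. Genes with many bins and high counts can be called more readily, and this share was not adjusted for either.

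Of 17 erythroid transcription factors, 4 were called, against 7.25% of all genes and 0 to 30% over the gene lists: KLF3, TAL1, LYL1 and LDB1. TAL1, a master regulator of blood formation, had its first bin (1:47232167-47232220) at 2.74, 0.809 and 1.80 CPM in the controls and 0.386, 0.435 and 0.738 CPM with 34kn (usage -1.18, edgeR adjusted p = 0.01153). LYL1, its close relative, had a usage value of -0.86 at bin 9, and LDB1, the adaptor that ties TAL1 to looping between enhancers and promoters, -0.62 at bin 17. KLF3, a repressor that binds the same motif as KLF1, had -1.20 at a bin of 1 base. Without control 1 the edgeR adjusted p was 0.2652 for TAL1, 0.768 for LYL1 and 0.3063 for LDB1, none of which passed. KLF3, at 0.005229, did. The DEXSeq-type model called none of these bins, with adjusted p-values of 0.1533 for KLF3, 0.2229 for TAL1, 0.7585 for LYL1 and 0.3272 for LDB1.

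Of 40 Mediator, cohesin and enhancer cofactor genes, 6 were called, against 7.25% of all genes and 0 to 30% over the gene lists. Lower bins were found in MED15 (-0.96 at bin 10), PDS5A (-0.65 at bin 50) and CCNC (-1.34 at bin 39), and LDB1 stands in this list too. Without control 1 none of these 3 was called, with edgeR adjusted p-values of 0.4258 for MED15, 0.4006 for PDS5A and 0.6942 for CCNC. MED10, a subunit of Mediator's middle module, was called higher at its last bin, the 3' end of the gene. It stood there at 1.91, 1.90 and 1.37 CPM in the controls and 3.37, 3.53 and 2.75 CPM with 34kn (usage 0.66, edgeR adjusted p = 0.006487). The DEXSeq-type model did not call it (adjusted p = 0.1483). Other higher bins, named after their values were seen, lay in COPB2, a coat protein of Golgi vesicles (1.99), RPS23, a ribosomal protein (0.42), KPNA2, an importin (0.77), and SLC25A37, the mitochondrial iron importer (0.48). Without control 1 COPB2 (edgeR adjusted p = 0.09168) and KPNA2 (0.08751) were not called, and MED10, RPS23 and SLC25A37 were.

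MYB itself was not called for exon usage. Of its 46 bins, 33 were tested and 0 were called, with 5 at an unadjusted p below 0.05, where 8.64% of all bins tested lie, and a Simes adjusted p of 0.2371 in edgeR. The DEXSeq-type model called 0 of them too. MYB lies on the plus strand of chromosome 6 (135181315 to 135219173 on GRCh38), and its bins have no coordinates here because their number differs from that of GENCODE 29, but bin 1 is the 5' end. The 5 bins at an unadjusted p below 0.05 were bins 3 to 7, and all 5 had negative values. Bin 4 had the smallest p, at 5.51, 4.70 and 4.70 CPM in the controls and 3.45, 4.19 and 3.71 CPM with 34kn (usage -0.39, edgeR adjusted p = 0.1405). Bin 3 stood at 2.66, 2.45 and 2.21 CPM in the controls and 1.60, 1.66 and 1.83 CPM with 34kn, a usage value of -0.49. At both bins every overexpression library was below every control, as at 10.5% of all bins tested.

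Bins 1 to 7 held 18.3%, 13.5% and 13.4% of the counts in tested MYB bins in controls 1 to 3, and 10.4%, 11.6% and 10.5% with 34kn. The end of this stretch at bin 7 follows the values of these libraries. Its share, its signs and the contrast with the other bins are therefore no independent support. The other 26 bins had a median usage of 0.05, with 7 below 0. Over all ordered genes the first tested bin had a median of -0.27, the second -0.17 and the last 0.04, and the bins between the second and the last 0.0026. MYB's bins 1 and 2 had -0.27 and -0.26, near the medians of first and second bins, and bins 3 to 7 had -0.24 to -0.49, below the median of bins in between. Those bins in between come from the whole length of genes, with a median GC content of 49.6% where placed. Among bins of at least 70% GC the medians were -0.34 for first bins and -0.14 for others. MYB's bins have no coordinates, so they were not compared with bins of like GC content. Without control 1 bin 1 was at 0.007, bins 2 to 7 stayed below 0, from -0.13 at bin 2 to -0.38 at bin 3, and 0 were called. Without control 2, bins 3, 4 and 5 were called, with edgeR adjusted p-values of 0.04004, 0.01212 and 0.03257. No MYB bin was called with 34kp or for the difference between the enhancer RNAs.

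**Figure D3:**
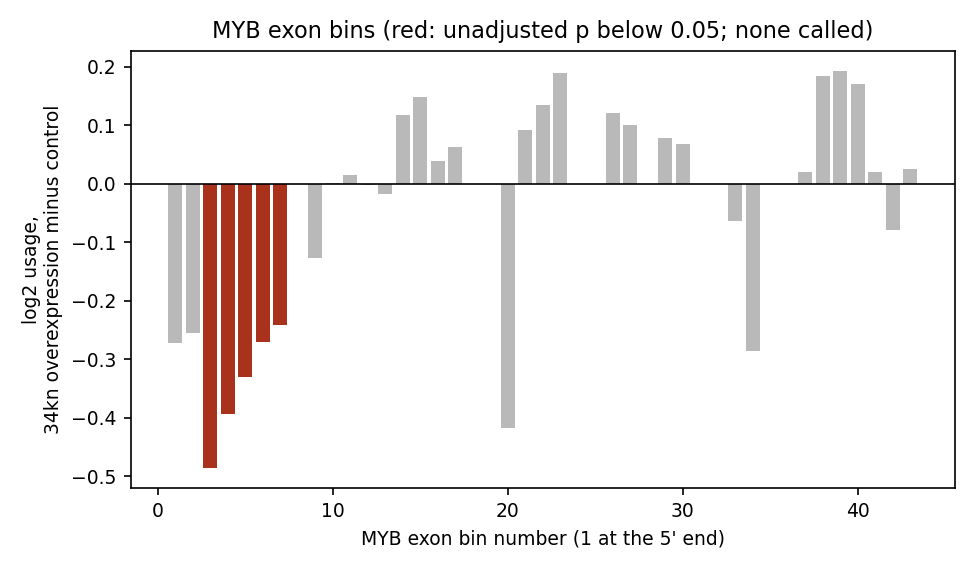
Bars give the log2 usage of each tested MYB exon bin, 34kn overexpression minus control, by bin number from the 5' end. Bins 1 to 7, a stretch marked off by these values, are all below 0. The 5 bins with an unadjusted p below 0.05 are red, and 0 were called after adjustment.

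At the level of whole genes no difference passed the test as fitted, and the count depended on the filter and the tool. Of 16116 genes, edgeR's quasi-likelihood test called 0 (0%), with a smallest adjusted p of 0.06216, and 1572 (512 higher, 1060 lower) when no filter on low counts was used. At an unadjusted p below 0.05 there were 3759 genes (23.3%), 1587 higher (9.85%) and 2172 lower (13.5%). DESeq2 called 1264 (7.84%), 396 higher (2.46%) and 868 lower (5.39%). Without control 2 edgeR called 2982, without control 1 447, and without any 1 of the other 4 libraries 0.

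MYB did not pass either. It stood at 159, 198 and 186 CPM in the controls and at 204, 206 and 200 CPM with 34kn, above the controls in every library. The log2 fold change was 0.17 ± 0.08 (SE; edgeR adjusted p = 0.2045), and 0.09 without control 1. Its antisense neighbour MYB-AS1 had 0.33 ± 0.15, and reads of the overlapping pair cannot be told apart where counting did not use strand. Of the flanking genes, HBS1L, a ribosome rescue factor, had 0.18 ± 0.07 and AHI1, a cilium gene, 0.08 ± 0.09, and neither passed. With the GC trend removed MYB had 0.07 and AHI1 reversed to -0.07.

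Gene fold changes ran with GC content. With the genes divided by GC content into 5 groups of equal size, the median log2 fold change was 0.16 in the lowest group, then 0.11, 0.02 and -0.11, and -0.25 in the highest. Across 15703 genes, which are not independent replicates, Pearson's r was -0.48 and Spearman's rho -0.58, given as a description. The medians with 34kp were -0.02 in the lowest and 0.06 in the highest group. Control 1's median deviation from the 6-library mean went from -0.18 to 0.24 over these groups. Control 3's went from -0.08 to 0.08, while control 2's was 0.03 and 0.01 at the ends. Without control 1 the medians still ran from 0.11 to -0.17. The part of GC content in each gene's value was not tested, and medians with the trend removed stand beside the groups below.

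**Figure D4:**
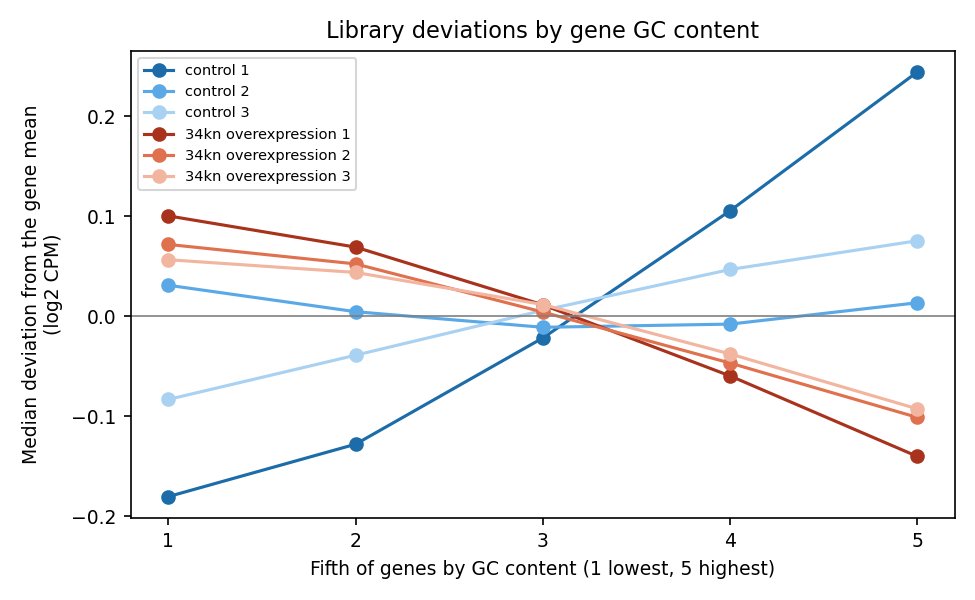
Lines give, for each library, the median deviation of its log2 CPM from the mean of the 6 libraries over genes in each of 5 groups by GC content. Control 1 runs from -0.18 to 0.24 and control 3 from -0.08 to 0.08, and the 3 overexpression libraries run the other way. The mean is shared by the 6 libraries, so these opposite runs are not separate observations.

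The genes with the smallest p differed by less than 2 times. SEC61G, a subunit of the channel that takes proteins into the endoplasmic reticulum, stood at 130, 146 and 142 CPM in the controls and 190, 186 and 197 CPM with 34kn (log2 fold change 0.45 ± 0.06, edgeR adjusted p = 0.06216). ARRDC4, an arrestin-like protein of glucose uptake control, had 0.51 ± 0.08, and CENPQ, a protein of the centromere, 0.59 ± 0.12. SLC25A22, the mitochondrial glutamate carrier, stood at 88.5, 91.9 and 82.5 CPM in the controls and 61.5, 62.8 and 62.2 CPM with 34kn (-0.49 ± 0.07, edgeR adjusted p = 0.06216). TRMT1, which methylates transfer RNA, had -0.42 ± 0.06, and CCDC78, a centriole protein, -0.77 ± 0.13. The groups did not overlap for these 6 genes. Over all genes, 13.4% had every overexpression library above every control and 15.6% every one below. The 6 genes were chosen by small p, so their lack of overlap is no independent support. None passed the threshold of 0.05.

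Genes of amino acid stress had mostly positive values, 17 of 25. ATF4 is the transcription factor that answers amino acid shortage by raising genes of amino acid synthesis, uptake and transfer RNA charging. Of 25 such genes tested, 0 were called by edgeR. At an unadjusted p below 0.05, where 9.85% and 13.5% of all genes lie, 12 were higher and 2 lower. DESeq2 called 7 higher and 2 lower, against 2.46% and 5.39% of all genes. All overexpression libraries were above all controls for 15 of them, where 13.4% of all genes had this order. The median log2 fold change was 0.12, against 0.00 over all genes, and 0.15 with the GC trend removed, when 16 were higher and 0 lower at an unadjusted p below 0.05 (all genes 5.67% and 6.43%).

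In serine synthesis, PSAT1 stood at 122, 122 and 128 CPM in the controls and at 154, 149 and 156 CPM with 34kn (0.30 ± 0.06, edgeR adjusted p = 0.06435), PSPH had 0.16 ± 0.07, and PHGDH, the first enzyme, 0.00 ± 0.08. MTHFD2, the mitochondrial folate enzyme, stood at 263, 292 and 291 CPM in the controls and 338, 336 and 332 CPM with 34kn (0.25 ± 0.06). Of 9 aminoacyl-tRNA synthetases, which are part of the same list, 7 had positive values. At an unadjusted p below 0.05, 5 of the 9 were higher, where 9.85% of all genes lie. WARS1 and GARS1, with the smallest p among the synthetases, both had 0.21 ± 0.06. ATF4's own RNA had -0.16 ± 0.09 and CHAC1, which degrades glutathione, -0.05 ± 0.09. The values lower at an unadjusted p below 0.05 were those of CEBPB (-0.31 ± 0.10) and DDIT4, an inhibitor of mTOR (-0.34 ± 0.12).

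With the GC trend removed edgeR called 3 genes (0.0186%), and TRIB3 of this group was 1 of them. PCK2, which is no member of the list, is the mitochondrial PEP carboxykinase and stood at 97.3, 88.9 and 91.6 CPM in the controls and 109, 109 and 99.0 CPM with 34kn (0.43 with the trend removed, edgeR adjusted p = 0.03505, against 0.19 and 0.1416 without). TRIB3, a pseudokinase induced by ATF4, had 0.38 against 0.15. RHOXF2, a homeobox gene with a near-identical copy beside it, so that its reads are uncertain, had -0.49 against -0.40.

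With 34kp the median of the 25 genes was -0.21, and the difference between the effects was called for 15 of them. All 15 had a higher value for 34kn than for 34kp. Over all genes that difference was called for 1102 of 17323 (6.36%), 491 higher with 34kn (2.83%) and 611 lower (3.53%), and 34kp alone had 392 genes called (2.35%). The values with 34kn and with 34kp had opposite signs for PSAT1 (0.30 and -0.39), MTHFD2 (0.25 and -0.27) and WARS1 (0.21 and -0.21), and the same sign for DDIT4 (-0.34 and -2.15). DDIT4, on a scale common to the 12 libraries, stood at 971, 658 and 775 CPM in the 34kn controls and 617, 625 and 671 CPM with 34kn, and at 343, 411 and 376 CPM in the 34kp controls and 106, 81.2 and 67.7 CPM with 34kp.

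**Figure D5:**
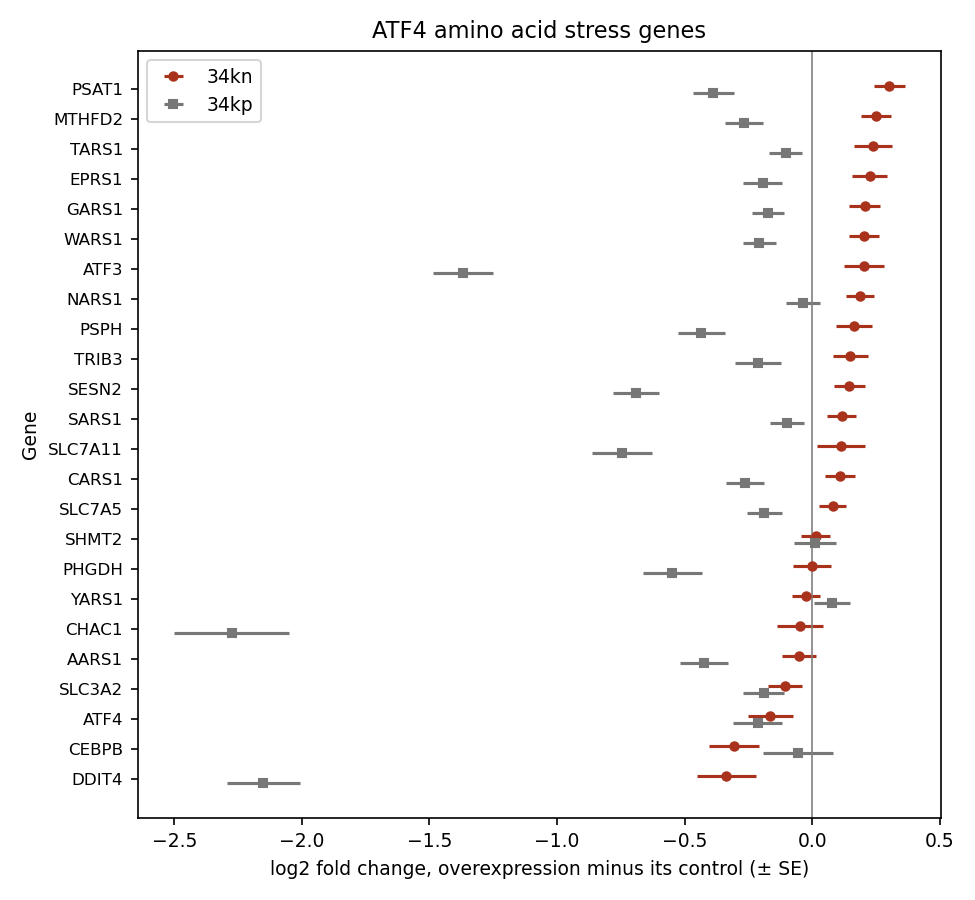
Points give the log2 fold change ± SE of 24 ATF4 amino acid stress genes with a control mean of at least 5 CPM, for 34kn (circles) and 34kp (squares), each against its own controls. PSAT1 has the highest 34kn value, 0.30, and DDIT4 the lowest, -0.34.

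Erythroid transcription factors had mostly negative values. Of 17 tested, 0 were called by edgeR, 9 were lower and 0 higher at an unadjusted p below 0.05 (13.5% and 9.85% of all genes), and the median was -0.17. KLF1, the activator of adult globin genes, stood at 108, 66.3 and 79.5 CPM in the controls and 50.2, 50.4 and 54.8 CPM with 34kn (-0.71 ± 0.15, edgeR adjusted p = 0.06678, and -0.37 with the GC trend removed). GFI1B, a repressor needed for red cells and platelets, had -0.30 ± 0.07, ZFPM1, the partner of GATA1, -0.43 ± 0.10, and GATA2 -0.33 ± 0.09. The median GC content of these genes was 57.4%, against 48.3% over all, and with the GC trend removed their median was -0.02. GFI1B, with 44.7% GC, kept -0.39. Leaving out control 1, the highest library for KLF1 and GATA2, gave -0.49 for KLF1 and -0.21 for GATA2. Of the globin genes, HBA2 stood at 297, 173 and 203 CPM in the controls and 134, 134 and 135 CPM with 34kn. Its log2 fold change was -0.74 ± 0.18, with -0.36 when the GC trend was removed and -0.48 without control 1. Its near-identical copy HBA1 had 0.14 ± 0.18, and reads may be split between them.

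Genes of ribosome production had negative values in larger numbers. Of 27 ribosome biogenesis genes, 13 were lower and 1 higher at an unadjusted p below 0.05 (13.5% and 9.85% of all genes), with a median of -0.12 (-0.07 with the GC trend removed). NOP10, a small protein of the pseudouridine-guiding particles, stood at 92.4, 68.5 and 85.2 CPM in the controls and 58.9, 58.0 and 62.3 CPM with 34kn (-0.46 ± 0.10). NOP16 had -0.36 ± 0.07. Control 1 was the highest library for both, and without it NOP10 had -0.36 and NOP16 -0.33. Of 44 cytosolic ribosomal protein genes with names of their own, 16 were lower and 3 higher, with a median of -0.14 (-0.10 with the GC trend removed), led by RPL41 (-0.65 ± 0.12). A further 34 lie under joined names and were not counted. Of 27 nuclear genes of oxidative phosphorylation, 11 were lower and 0 higher, with a median of -0.08 (-0.13 with the GC trend removed), led by COX6B1 (-0.52 ± 0.10). Control 1 was the highest library for all 11. Their values stayed negative without it but were smaller, at -0.40 for COX6B1 and -0.06 for UQCRQ.

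Genes encoded in mitochondrial DNA went the other way. Of 10 tested, 7 were higher and 0 lower at an unadjusted p below 0.05 (9.85% and 13.5% of all genes), with a median of 0.21 (0.12 with the GC trend removed). MT-ND2 stood at 1386, 1852 and 1635 CPM in the controls and 2019, 2075 and 2006 CPM with 34kn (0.32 ± 0.08, edgeR adjusted p = 0.07677). Control 1 was the lowest library. Of 29 mitosis genes, 10 were higher and 2 lower, with a median of 0.15 and 0.04 with the GC trend removed. CDK1, the kinase that starts mitosis, had 0.21 ± 0.06, and AURKB, of the chromosomal passenger complex, -0.27 ± 0.08.

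Early response and heat shock genes held some of the larger negative values. Of 18 immediate early genes, 9 were lower and 2 higher at an unadjusted p below 0.05 (13.5% and 9.85% of all genes), with a median of -0.26 and -0.12 with the GC trend removed. EGR1 stood at 53.2, 47.0 and 52.3 CPM in the controls and 39.0, 40.3 and 42.9 CPM with 34kn (-0.32 ± 0.08), and JUND had -0.39 ± 0.07. Of 15 heat shock genes, 6 were lower and 0 higher, among them HSPA1A (-0.67 ± 0.11), which has a near-identical copy, and HSPB1 (-0.58 ± 0.10). The median of the 15 was 0.07, and -0.01 with the GC trend removed. Of 16 reported MYB target genes, 3 were lower and 2 higher, near the shares over all genes, with a median of -0.14 (-0.0034 with the GC trend removed), and MYC had -0.14 ± 0.06.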

How the data were processed

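RNA from K562 cells was sequenced after TRIzol extraction and TruSeq library preparation from 1 µg of total RNA, per the labels' protocols. The deposited files hold whole-number counts per exon bin. STAR 2.7.10a, Trimmomatic 0.93 and GRCh38 are named in the submitters' processing notes, while the counter and annotation release are not given in the sources used here. Closing rows that name no gene were left out (reads in no bin were 29.5 to 30.9% of each library's reads). Bins were summed per gene name, and 2582 names join several overlapping genes. R 4.3.3 was used with edgeR 4.0.16 (TMM, filterByExpr with a minimum count of 10, robust quasi-likelihood F test, Benjamini-Hochberg adjustment, threshold 0.05) and diffSpliceDGE for bins, and DESeq2 1.42.0 as an alternative. CPM values are scaled by TMM. Bins got coordinates and GC content only where the gene's bin number matched GENCODE 29. Scripts were tested on simulated data. The 42 gene lists, and the libraries compared, were chosen with earlier results of these data known. Genes were named by size and p among single names with a mean of at least 5 CPM: where none was called, the 3 with the smallest p per direction, then up to 4 per list by p and all MYB locus genes tested; for usage the 12 smallest Simes p and up to 4 per list; for the difference from 34kp, 5 per direction. Some genes that meet this rule are not reported here. PCK2, TRIB3, RHOXF2, further list members and the higher bins were added after their values were seen. Alternatives were other scaling, DESeq2 and DEXSeq-type models, no filter, a replicate block, single names, 12 libraries, and leaving out each library.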

Additional observations from a re-analysis of the deposited data

Results flagged for a closer look

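The effects of 34kn and 34kp, each against its own controls, differed in edgeR's test of the difference for 1102 of 17323 genes (6.36%), 491 with a higher value for 34kn (2.83%) and 611 with a lower one (3.53%), and for 730 of 235683 exon bins (0.31%). With 34kp alone 392 genes (2.35%) were called.

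The genes named here were flagged because the difference itself passed the test. Higher for 34kn were HERPUD1, a protein of endoplasmic reticulum stress, by 1.17 on the log2 scale, ATF3, a stress transcription factor, by 1.57, ARRDC3, an arrestin-like protein, by 1.54, P4HA1, which modifies collagen, by 1.20, and TSC22D1 by 1.15. Lower for 34kn were EGR1 at -1.56, ISG15, an interferon-induced modifier, at -1.79, TMEM158 at -1.21, ID1, an inhibitor of differentiation factors, at -0.80, and SLC52A2, a riboflavin carrier, at -1.07.

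For 34kn alone HERPUD1 had a log2 fold change of 0.12 ± 0.06 and P4HA1 0.09 ± 0.09, while 34kp had -1.05 and -1.11. HERPUD1, scaled over 12 libraries, stood at 87.4, 93.7 and 89.8 CPM in the 34kn controls, 97.3, 97.5 and 100 CPM with 34kn, 84.2, 79.9 and 77.4 CPM in the 34kp controls and 41.7, 37.3 and 37.9 CPM with 34kp. EGR1 stood at 54.2, 48.0 and 53.4 CPM in the 34kn controls and at 9.65, 9.28 and 12.5 CPM in the 34kp controls, so the controls themselves differed.

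Leaving out 1 library moved the gene count by over 1.5 times for 11 of the 12 libraries, from 380 without 34kp control 2 to 2747 without 34kp overexpression 3, and the bin count from 65 without 34kn control 1 to 2873 without 34kp overexpression 3. The cause was not tested.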

How the results depend on the processing

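For the gene level, edgeR called 0 genes with DESeq2 size factors, the replicate block, single names or all 12 libraries, and 1264 with DESeq2's own test (396 higher, 868 lower), 1572 with no filter (512 higher, 1060 lower) and 3 with the GC trend removed (2 higher, 1 lower). Leaving out 1 library gave 0 to 2982 genes, 0 to 1319 higher and 0 to 1663 lower, a MYB log2 fold change of 0.0886 to 0.2386, 255 to 8394 exon bins, 111 to 2645 genes with exon usage called and 0 to 3 MYB bins. For exon usage the DEXSeq-type model called 23 bins in 12 genes, and placed bins alone 518 in 301, which holds fewer bins. For the difference from 34kp, DESeq2 called 2014 genes and no filter 2085, and 482 bins were called with single names; leaving out 1 library gave 380 to 2747 genes and 65 to 2873 bins. With the GC trend removed, these uncalled values changed sign: AHI1 -0.06955, CEBPB 0.026, TFR2 0.0058, NBEAL2 0.061, FASN 0.055, SREBF1 0.0018, HSF1 0.024, JUND 0.0024, TNFAIP2 0.024, TGFB1 0.075 and UPF1 0.028. The cause was not tested.

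Same-numbered libraries showed no shared variation: their deviations correlated at -0.047, 0.0046 and -0.011, against -0.033 to 0.040 for differently numbered ones. With 3 libraries per group this cannot settle whether they were prepared as pairs. With the replicate block 0 genes and 1246 bins in 605 genes were called for 34kn, and 105 genes and 140 bins for the difference from 34kp.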
